A study of Mus musculus with 12 samples.

Results

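The genes described here encode the proteins that bind N6-methyladenosine (m6A) through a YTH domain and the enzymes that remove it. They are Ythdf1, Ythdf2, Ythdf3, Ythdc1 and Ythdc2, the readers, and Fto and Alkbh5, the demethylases. Members were set by gene name, with earlier results of these data known. Every listed peak of each was taken, which gave 10 of 17503 peaks in 7 of 10277 genes. The values came from m6A RNA immunoprecipitation and sequencing of C57BL/6 mouse liver, in which fragmented poly(A) RNA is pulled down with an anti-m6A antibody and sequenced beside input mRNA. The labels give 4 groups of 3 libraries: Mettl3-deficient IP, Mettl3-deficient input, wild-type IP and wild-type input. METTL3 is the subunit that carries the catalytic activity of the m6A writer complex. The title places the samples in postnatal liver. The sources used here do not give how Mettl3 was made deficient, in which cells, or the age of the mice. Peaks were listed for 5 of 5 hepatocyte marker genes, 3 of 3 endothelial, 2 of 3 macrophage, 3 of 3 stellate and 1 of 3 cholangiocyte marker genes. A listed peak gives no expression level, so these counts are not a check of the tissue.

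m6A is written on mRNA in the nucleus, mostly near stop codons and in 3′ UTRs, and is read by proteins with a YTH domain, whose aromatic pocket holds the methylated base. YTHDC1 is the nuclear reader, with parts in splicing and export. The YTHDF proteins act in the cytoplasm, where YTHDF2 recruits the CCR4-NOT deadenylase and shortens the life of methylated transcripts. FTO and ALKBH5 are iron- and 2-oxoglutarate-dependent dioxygenases that take the methyl group off. All these proteins act on the transcripts of other genes, and the peaks described here are regions of anti-m6A pulldown signal on their own transcripts.

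A single table of the authors' comparison between the genotypes was used, with a log2 fold change and a log10 false discovery rate (FDR) per peak. It holds no values per library, so read depth is unknown and no error between mice can be given for any value. Whether the change was corrected for the input libraries is not given in the sources used here. In bulk liver, fewer cells of a type and less RNA per cell cannot be told apart. The header does not name the numerator. Since the study's contrast is Mettl3-deficient against wild type, negative changes are likely losses of m6A signal in the Mettl3-deficient livers, a reading that no value in the table settles. A peak is called here when its deposited FDR is 0.05 or below. Mettl3 itself had no peak that was analysed here, so the labels were not checked through it.

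RefSeq start-site sequences were matched for 5 of the 7 genes, and they are shown because the listed peaks of Fto and Alkbh5 reach the transcript start. Each run has 30 bases of assembly GRCm38.p6 on the strand of the gene, 10 before the start and 20 from it onward. Capitals mark matches to the m6A consensus DRACH, searched as NNACN with A, G or T as the first letter, A or G as the second and A, C or T as the last.
Fto: ggcggggtccagggcgaggggGAACAcggc
Alkbh5: ggggcGGACTgggttgtggcgattcccgag
Ythdf1: gcgtagcttcgtcccagccgccgcggccgc
Ythdf2: cccttccgcgtgggtcagcgactgtgagag
Ythdc1: ctccattttagcgccgcccggcgtcgccat
The Fto run lies at chr8:91313515-91313544 on the plus strand and that of Alkbh5 at chr11:60537673-60537702 on the plus strand. Those of Ythdf1, at chr2:180920917-180920946, and Ythdf2, at chr4:132212237-132212266, are on the minus strand, and that of Ythdc1, at chr5:86804256-86804285, is on the plus strand. In Fto the match GAACA begins at base 12 of the transcript, and in Alkbh5 the match GGACT takes the last 5 bases before the start. No matches overlapped each other, and the other 3 runs hold none on the strand of the gene. On the opposite strand the search gave GGACC in Fto and TGACC in Ythdf2. Such a match is common: 36.3% of 32851 RefSeq windows of this length hold one on the strand of the gene and 37.6% on the opposite strand. A match is a description of the letters and not a methylated site.

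The leading peaks of the readers were negative and those of the demethylases positive, though 2 of the 7 were not called. In 4 of the 5 YTH genes the leading peak, which is the one with the smallest FDR, was negative and called, and Ythdc2 was negative and not called. Neither demethylase gene had a negative peak: Fto was positive and called, and Alkbh5 was positive and not called. Over the 10 peaks, 4 were negative and called, 3 positive and called and 3 not called. The share called, 70.0%, stands beside 76.2% over all listed peaks, of which 40.6% were negative and called and 35.6% positive and called. At gene level 5 of 7 had a called leading peak, beside 81.1% of all genes. In 4 of 7 it was negative and in 1 of 7 positive, beside 47.6% and 33.6% of all genes. It is not known whether the variation between mice entered the deposited FDR. The median of the 10 peaks was -0.325 on the log2 scale, beside 0.34 over all listed peaks.

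**Figure D1:**
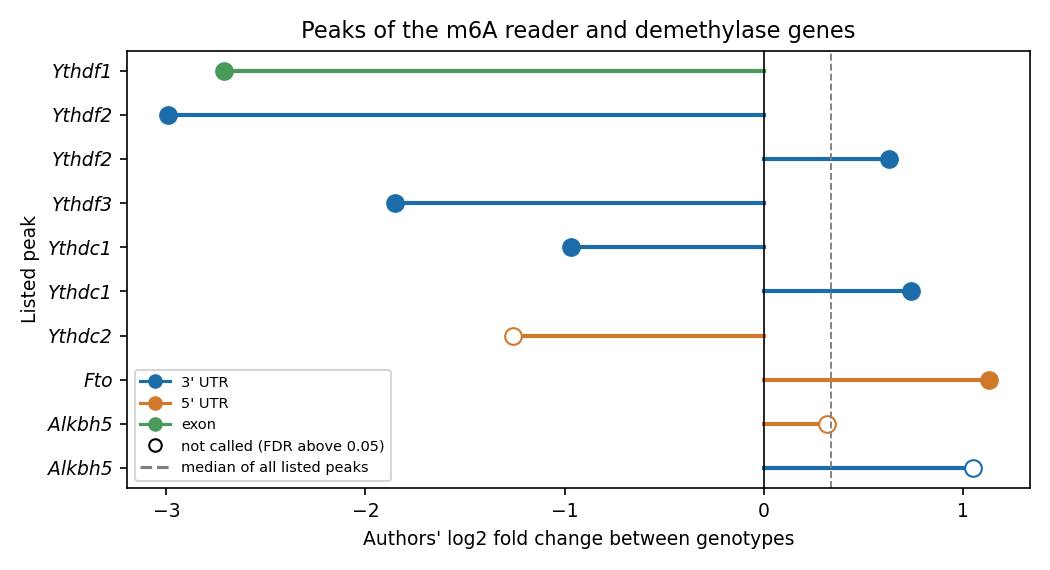
Log2 fold change between the genotypes (x axis, authors' deposited values) of each of the 10 listed peaks (y axis, in 5′ to 3′ order within a gene), coloured by the authors' feature label. Filled points are called at FDR 0.05, open points are not, and the dashed line is the median of all listed peaks at 0.34; the 4 filled points left of 0 belong to the YTHDF genes and Ythdc1.

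The YTHDF genes carried the most negative values, and each had exactly 1 negative peak. For Ythdf2, whose protein promotes decay of methylated mRNA, the authors' deposited table gives -2.99, a ratio of 0.126, with the log10 FDR at its floor of -434. This peak has the 3′ UTR label and runs from 132186734 to 132204994 on chromosome 4 (mm10). It covers the gene from 26.6% to 93.4% of its span, so its value cannot be placed in the 3′ UTR alone, and its rank follows the authors' label. Only 119 of 9804 peaks with that label were lower, and it stood at rank 230 from the lowest of all 17503 peaks. For Ythdf1, a cytoplasmic reader linked to translation, the authors' deposited table gives -2.71, a ratio of 0.153, also at the floor of the log10 FDR. That peak lies at 180910799 to 180911844 on chromosome 2, in exon 4 of 5, and 153 of 3447 exon peaks were lower. Ythdf3, the third cytoplasmic paralogue, stood at -1.85 in the authors' deposited table, a ratio of 0.277, with a log10 FDR of -98.5. Its peak runs from 16203954 to 16214251 on chromosome 3 under the 3′ UTR label, where 1214 of 9804 peaks were lower. The order within the family was thus Ythdf2, Ythdf1, Ythdf3 from the lowest, and with no error between mice the differences among them could not be tested.

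The floor of the FDR scale is shared by 485 of the listed peaks, or 2.77%, so the value of -434 does not order Ythdf1 and Ythdf2 against each other. Of those 485 peaks, 423 (87.2%) were negative, with a median over all 485 of -1.88. Among the peaks at the floor 17 were lower than that of Ythdf2 and 42 lower than that of Ythdf1. The nuclear reader and the demethylases were far from that floor, with log10 FDR values of -4.84 or nearer to 0.

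**Figure D2:**
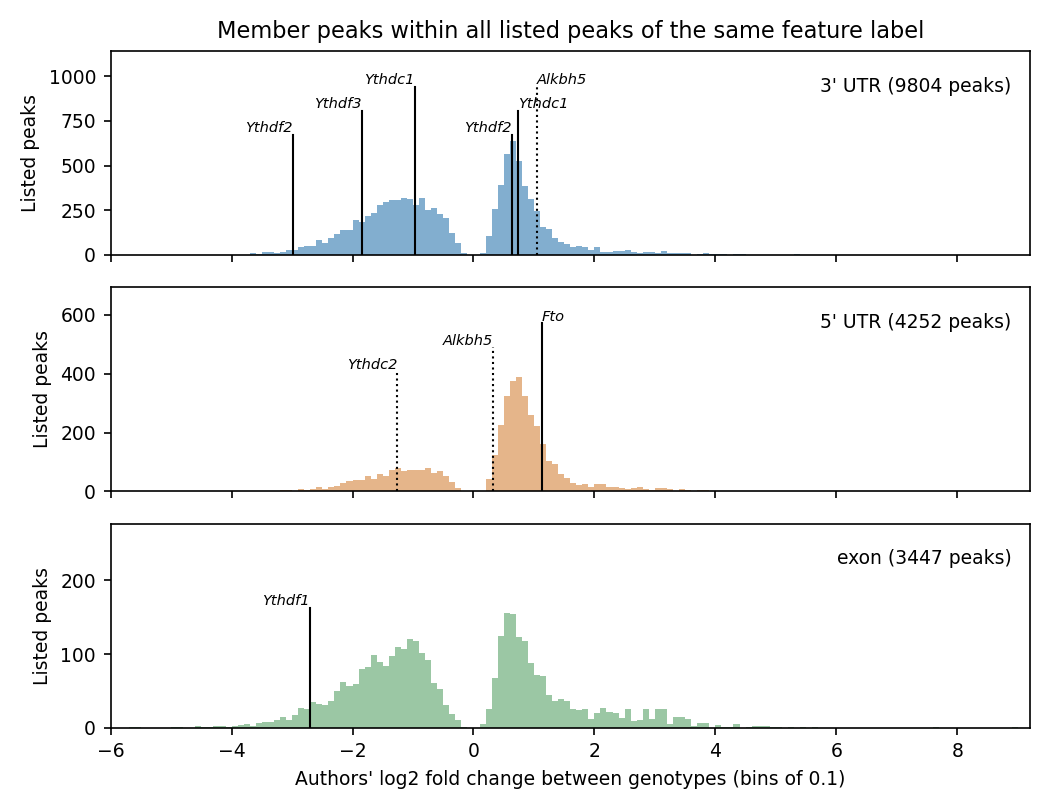
Number of listed peaks (y axis) by log2 fold change in bins of 0.1 (x axis), in 1 panel per feature label, with vertical lines at the members' peaks, solid where called and dotted where not. The lowest lines, Ythdf2 at -2.99 among 9804 3′ UTR peaks and Ythdf1 at -2.71 among 3447 exon peaks, sit in the left tails, and the positive lines lie within the body of the right-hand mode.

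Ythdf2 and Ythdc1 each held a called positive peak farther downstream under the same 3′ UTR label. The second peak of Ythdf2, at 132186017 to 132186406 on chromosome 4, stood at 0.63 in the authors' deposited table, a ratio of 1.55, with a log10 FDR of -3.38. The gene is on the minus strand, so this peak lies nearer the transcript end, 1101 bp before the RefSeq gene end, and the difference between both peaks is 3.62 on the log2 scale. For Ythdc1, the nuclear reader, the authors' deposited table gives -0.97 (ratio 0.511, log10 FDR -4.84) at 86828099 to 86829625 on chromosome 5. A second Ythdc1 peak, at 86836420 to 86836659, stood at 0.74 in the authors' deposited table (ratio 1.67, log10 FDR -2.99). It ends on the last base of the RefSeq gene, and the peaks of Ythdc1 differ by 1.71. The negative Ythdc1 peak is tied by the authors to a processed transcript whose start it covers, although it has the 3′ UTR label and ends 7034 bp before the RefSeq gene end.

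Such a pair is not rare in the table. Among 1238 genes with at least 2 called 3′ UTR peaks inside the RefSeq span and a known strand, 460 (37.2%) held both signs. The positive extreme was the one nearer the gene end in 387 of these 460 (84.1%), Ythdf2 and Ythdc1 among them. The difference was at least that of Ythdf2 in 28 of the 460 genes and at least that of Ythdc1 in 343, with a median of 2.225 on the log2 scale. Of called 3′ UTR peaks that end within 300 bp of the gene end, 40.8% of 3100 were negative, against 75.8% of 3943 that lie farther upstream. The 3′ UTR peaks of Ythdc1 and Alkbh5 that end on the last base of the gene, at 0.74 (called) and 1.05 (not called) in the authors' deposited table, fall in the class near the gene end. The leading peaks of Ythdf2, Ythdf3 and Ythdc1, which end 1818, 2786 and 7034 bp before the gene end, fall in the class upstream. The positive called peak of Ythdf2, 1101 bp before the gene end, falls in that class too, against the sign of most of its peaks.

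**Figure D3:**
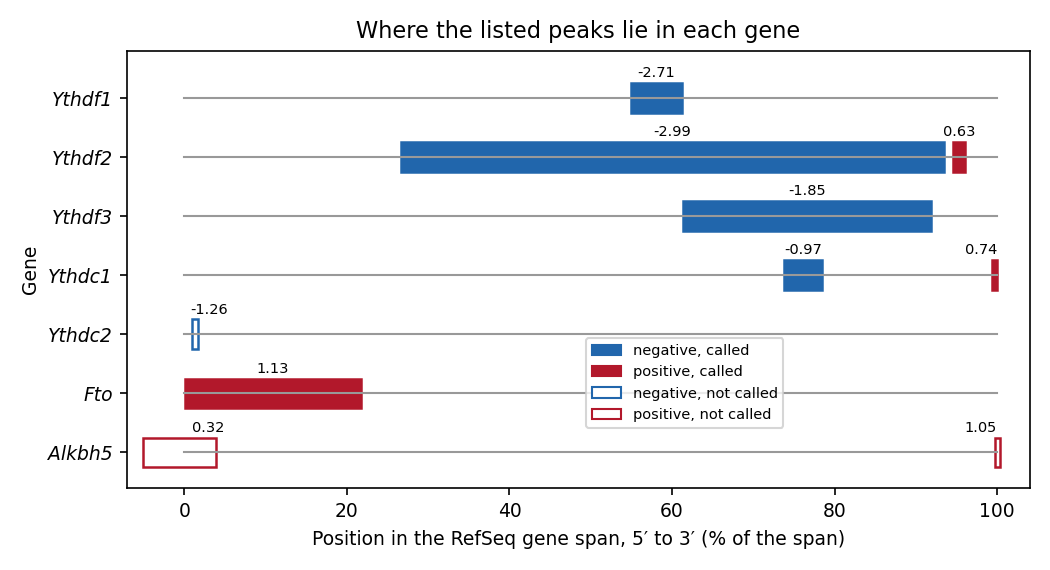
Position of each listed peak along the RefSeq span of its gene (x axis, percent of the span from 5′ to 3′; 1 row per gene), with the log2 fold change of the authors' deposited table above each bar. Blue bars are negative and red positive, filled where called; in Ythdf2 and Ythdc1 the red bar lies downstream of the blue one. Bars show genomic extent with introns and are not lengths on the RNA.

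Ythdc2, whose protein joins the YTH domain to an RNA helicase and is known from meiosis in the mouse germ line, had 1 peak. In the authors' deposited table it stood at -1.26, a ratio of 0.418, with a log10 FDR of -0.93 and a p-value of 0.06. This corresponds to an FDR of 0.117, and the peak was not called. It lies at 44828286 to 44828796 on chromosome 18 under the 5′ UTR label, 540 bp from the transcript start by the authors' distance. Of 4252 peaks with that label 549 were lower. Over all 4252 peaks with the label, 23.0% were negative and called.

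Of the demethylase genes, Fto was the one with a called peak. Its protein also removes the methyl group from m6Am, the modified base beside the mRNA cap. The authors' deposited table gives 1.13 for Fto, a ratio of 2.19, with a log10 FDR of -3.53. The peak has the 5′ UTR label and runs from 91313525 to 91390689 on chromosome 8. It begins on the base that the RefSeq promoter table takes as the transcript start, shown in the run above, and ends at 21.8% of the gene span. At 77165 bp it was wider than 99.7% of listed peaks, so the value cannot be placed at a single exon. Among 5′ UTR peaks 53.4% were positive and called, and 3547 of 4252 were lower than that of Fto.

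Alkbh5 had a peak at each end and neither was called. The peak at 60536620 to 60538499 on chromosome 11, under the 5′ UTR label, stood at 0.32 in the authors' deposited table (ratio 1.25, log10 FDR -1.08, p-value 0.04, an FDR of 0.0832). It begins 1063 bp before the RefSeq gene start and so covers the whole run shown above, GGACT included. The peak at 60558452 to 60558512, under the 3′ UTR label, stood at 1.05 in the authors' deposited table (ratio 2.07, log10 FDR -0.91, p-value 0.06, an FDR of 0.123). It is 61 bp wide, narrower than all but 0.806% of listed peaks. When the table's median of 0.34 is subtracted, the 5′ UTR value becomes -0.02, so its sign is not firm.

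The members' peaks also differed in genomic extent. All 4 negative called peaks were wider than 1000 bp, with 1046 bp in Ythdf1, 18261 bp in Ythdf2, 10298 bp in Ythdf3 and 1527 bp in Ythdc1, beside a median of 480.0 bp over all listed peaks. The positive called peaks of Ythdf2 and Ythdc1 were 390 and 240 bp wide, and that of Fto, at 77165 bp, was the widest of the 10. With peaks of up to 1000 bp alone, no negative called peak of the members was left. Over the whole table, 53.6% of 5095 called peaks wider than 1000 bp were negative, against 53.0% of 8250 of up to 1000 bp. Under the 3′ UTR label alone, 70.0% of 2424 wider called peaks were negative, against 56.2% of 5519 narrower ones. The part of width in the members' values was not tested. All 10 member peaks overlapped the RefSeq span of their own gene, and none overlapped a listed peak of another gene.

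The members' peaks carried 3 feature labels. Of their 6 peaks with the 3′ UTR label 3 were negative and called, 2 positive and called and 1 not called, beside 81.0% called, 48.9% negative and called and 32.1% positive and called over all such peaks. Of 3 with the 5′ UTR label, 1 was positive and called and 2 were not called, beside 76.4% called over all such peaks. The single exon peak was negative, beside 62.5% called and 38.6% negative and called of all exon peaks. The leading peaks of the YTHDF genes and Ythdc1 were 3′ UTR or exon peaks and those of Fto and Alkbh5 were 5′ UTR peaks, while Ythdc2, negative and not called, shared the 5′ UTR label with the demethylases. The part of the label in the signs was not tested.

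Genes of related function went in differing directions. In the writer complex, which installs m6A, 14 of 16 peaks were on the negative side and past the threshold, with no called positive peak and with a median of -1.485. Over all listed peaks 40.6% were negative and called. The 16 peaks lie in 6 of 8 genes, without Mettl3 and Mettl14, and some overlap each other in Cbll1 and in Rbm15b. The authors' deposited table gives for subunits of the complex -2.16 in Rbm15, -1.51 in Rbm15b, -1.49 in Wtap and -1.57 in Zc3h13. All are nearer to 0 than the leading peaks of Ythdf1 and Ythdf2. Against that of Ythdf3 (-1.85), Rbm15 was lower, and Rbm15b, Wtap and Zc3h13 were nearer to 0. Another called exon peak of Rbm15 stood at -2.4 in the authors' deposited table. Among 3 listed genes of other m6A methyltransferases, 2 peaks were negative and called, 2 positive and called and 2, both negative, not called. There the authors' deposited table gives -1.31 for Mettl16, which methylates the Mat2a transcript and U6 snRNA, -0.83 for Pcif1, the m6Am writer, and 0.66 for Mettl5, which methylates 18S rRNA.

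Most listed peaks of m6A-binding proteins without a YTH domain were positive. There were 15 peaks in 7 of the 12 genes of that list, with a median of 0.85. Of these, 3 were negative and called, 10 positive and called and 2 not called. Over all listed peaks 40.6% were negative and called and 35.6% positive and called. The Igf2bp genes, Elavl1 and Eif3a had no listed peak. By contrast, of the 7 peaks of the YTH genes 4 were negative and called and 2 positive and called, with a median of -1.26. The authors' deposited table gives 1.0 for Hnrnpa2b1 and 0.31 for Hnrnpc, nuclear ribonucleoproteins that bind near m6A, 0.63 for Fxr2, a relative of the fragile X protein, and -0.73 for Prrc2a.

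Relatives of the demethylases and partners of the YTH proteins were also divided. In the AlkB family other than Alkbh5, 2 peaks were negative and called and 4 positive and called of 9 in 6 genes. The authors' deposited table gives -2.42 for Alkbh4 and -2.22 for Alkbh1 under the 3′ UTR label, and 1.03 for Alkbh7 and 0.62 for the leading peak of Alkbh3 under the 5′ UTR label. Alkbh3 also had a called positive peak under the 3′ UTR label, at 1.25 in the authors' deposited table. Alkbh1 is a dioxygenase acting on tRNA, Alkbh3 repairs alkylated nucleic acid and Alkbh7 is mitochondrial. Of 24 peaks in 14 partner genes, 4 were negative and called and 11 positive and called. In total 62.5% of the partner peaks and 66.7% of the AlkB family peaks were called, beside 76.2% of all listed peaks. Of all listed peaks 40.6% were negative and called and 35.6% positive and called. Subunits of the CCR4-NOT complex, which YTHDF2 recruits, had called peaks of either sign. The authors' deposited table gives -1.54 for Cnot7 and -1.22 for Cnot2, and called positive values for Cnot1 (0.98) and Cnot3 (1.0 and 0.68), the last 2 genes being named after their values were seen. The authors' deposited table also gives -0.43 for Upf1, the helicase of nonsense-mediated decay, and 0.86 for Rida, whose protein bridges YTHDF2 to an endonuclease. Set tests were not made, so no list is shown to differ from the members.

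**Figure D4:**
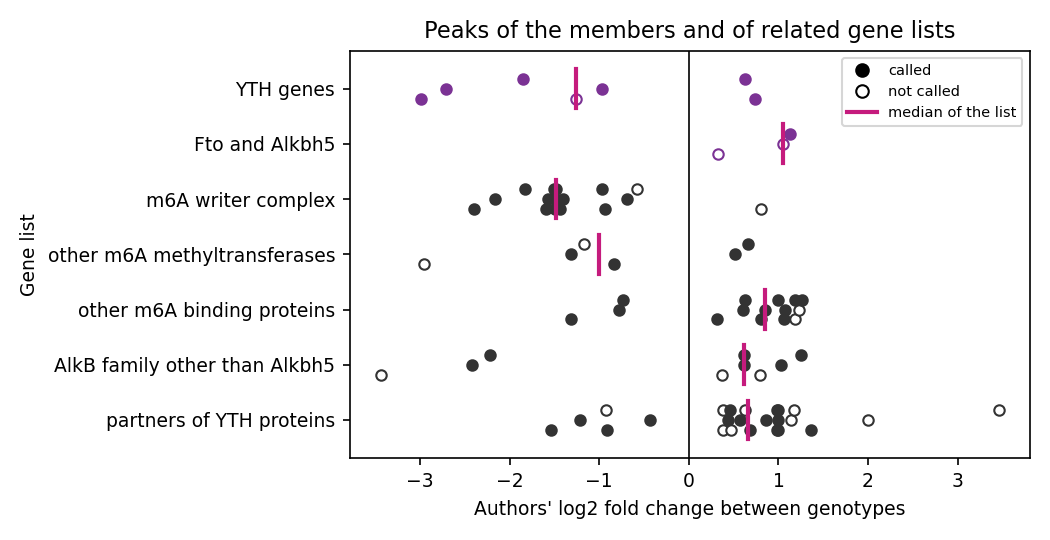
Log2 fold change of every listed peak (x axis, authors' deposited values) of the YTH genes, of Fto and Alkbh5, and of 5 related gene lists (y axis). Filled points are called at FDR 0.05 and bars are medians; the YTH genes (-1.26) and the writer complex (-1.485) have negative medians, and m6A-binding proteins without a YTH domain (0.85) a positive one.

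As the nearest equivalent of a shared pattern in a table with 1 comparison, the genes closest to Ythdf2 were taken among 5336 other genes whose leading peak was called and had the 3′ UTR label. Likeness was the absolute difference in log2 fold change, which was 0 for 4 genes, and the 3 of them with the smallest FDR were named. They were Slc2a2, which encodes the glucose transporter of hepatocytes, Gm15638, a predicted gene, and Serpinb8, a serine protease inhibitor gene, each at -2.99 in the authors' deposited table. Of these, Slc2a2 was also at the floor of -434, while Gm15638 stood at a log10 FDR of -46.6 and Serpinb8 at -9.32 in the authors' deposited table.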

How the data were processed

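Per the submitters' processing notes, HISAT2 2.1.0 and build mm10 were used. The sources used here do not give the peak caller, its filters or the comparison's settings. The authors deposited 1 peak table of 17692 rows. Its log2 fold change and log10 FDR are treated as scores here, per the file headers, because 189 rows without a gene name have shifted cells and the FDR has a floor of -434; those rows were left out, and none carries a member's gene ID. The deposited p-value is rounded to 2 decimals. Ratios, ranks, counts and medians were computed from these values with Python 3.11.15 and pandas 2.3.3, and counting was tested on simulated data. Gene spans and start windows came from RefSeq (GRCm38.p6, the same build as mm10). Strand came from the promoter table, or from the deposited distance where that table has no entry (Ythdf3 and Ythdc2 among them). A model of counts per library, planned in case the table held them, could not be run because it holds no values per library. Members and lists were chosen with earlier results of these data known. Named genes were the members, up to 4 called genes per related list by FDR, and the 3 genes nearest to Ythdf2. The distance of 300 bp from the gene end was chosen after seeing the data.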

Additional observations from a re-analysis of the deposited data

How the results depend on the processing

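Among the members, counts kept to within 1.5 times of the values given under FDR thresholds of 0.01 and 0.001. Signs and the choice of leading peaks could not change there, since neither depends on the threshold. The positive called peaks fell from 3 to 2 at 0.001, where the positive Ythdc1 peak (log10 FDR -2.99) was no longer called. Counts were the same with only peaks inside the RefSeq span and with rows lacking a gene name. Neither setting could change them, since all 10 member peaks overlap the span and none of those rows carries a member's gene ID. Taking the largest absolute change as a gene's value gave the same 4 negative and 1 positive called genes. It chose another peak only in Alkbh5, where neither peak was called, so this count could not change. The mean over peaks moved Ythdf2 to -1.18 and Ythdc1 to -0.12. A mean has no deposited FDR, so how many genes would be called by it is not known. At 0.001 the related lists had 17 positive called peaks in place of 27. With a minimum size of 1 on the log2 scale, 4 member peaks were called, 1 of them positive, Ythdc1 (-0.97) dropped out, and the related lists had 26 called peaks, 9 of them positive. After subtraction of the table's median, Alkbh5 turned to -0.02 and the members' median was -0.665. A limit on genomic width changed the members' result: with peaks of up to 1000 bp, 0 negative and 2 called member peaks were left, 0 genes had a negative and 2 a positive called leading peak (2 in all), Ythdc1 turned to 0.74, Ythdf2 to 0.63 and the median to 0.685, and the related lists had 29 called peaks, 16 negative and 13 positive; the wide peaks are removed by construction. Of all 11646 listed peaks of up to 1000 bp, 8250 were called, 4375 of them negative and 3875 positive. With 3′ UTR peaks alone, 3 genes had a called leading peak and 0 a positive one, and the median was -0.17. The related lists then had 28 called peaks, 15 negative and 13 positive. Among all 3′ UTR peaks 81.0% were called, 48.9% negative and called and 32.1% positive and called. Shares over all listed peaks at the stricter FDR thresholds and the minimum size are not given here, so those drops cannot be read as particular to the members. For the gene-end comparison, a distance of 100 bp gave 39.3% negative near the end against 74.4% upstream and 1000 bp gave 48.6% against 76.7%, both added after seeing the data. No paired analysis was possible because the table holds no values per library, and leaving out replicates was not run for the same reason.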

Other observations

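The authors' own annotation gives a further view of the readers and demethylases, examined after the values were seen. The GO term N6-methyladenosine-containing RNA binding held 8 listed genes, the 5 YTH genes with Dhx36, Hnrnpa2b1 and Hnrnpc, whose 14 peaks included 5 called negative and 7 called positive ones. Dhx36, an RNA helicase of G-quadruplexes, had both signs, where the authors' deposited table gives -0.69 for an exon peak and 0.68 for a 3′ UTR peak. The term oxidative RNA demethylase activity held Alkbh1, Alkbh5, Fto and Jmjd6, the last a nuclear dioxygenase whose 3′ UTR peak the authors' deposited table gives as -0.62. Of these 4 genes, both with a negative called peak (Alkbh1 and Jmjd6) have it under the 3′ UTR label, and the called peak of Fto is under the 5′ UTR label. The term nuclear speck, which holds Ythdc1, Fto and Alkbh5, had 216 negative and 208 positive called of 540 peaks in 290 genes, or 40.0% and 38.5%, beside 40.6% and 35.6% over all listed peaks.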
